A study of Homo sapiens with 8 samples.

Results

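MHCC-97H and MHCC-97L are human hepatocellular carcinoma cell lines named for a high and a low metastatic potential. Both were given Flag-OGT, a lentiviral copy of O-GlcNAc transferase with a Flag tag at its C-terminus, and the cells that carried it stably were selected with neomycin. The comparison described here is MHCC-97H Flag-OGT against MHCC-97L Flag-OGT, 2 RNA-seq libraries of each, and these 4 libraries were chosen by their labels from the 8 RNA-seq libraries at hand. The other 4 are 2 libraries each of MHCC-97H and MHCC-97L without a Flag-OGT label, called controls below; the sources used here do not say whether these held an empty vector. All 4 groups were grown in the same medium with fetal calf serum. Both Flag-OGT groups carry the same transgene, so the comparison does not show what the transgene does. Each line was given it and then selected, so differences of the lines and of the selected cells cannot be told apart. Levels are the deposited FPKM (fragments scaled by transcript length and library size). Differences are on the scale of log2(FPKM + 1), MHCC-97H minus MHCC-97L, which understates the difference of genes with low levels. Of 18902 genes, 13087 had a mean of at least 0.5 FPKM over the 4 Flag-OGT libraries and were tested.

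O-GlcNAc transferase places one N-acetylglucosamine on serines and threonines of proteins in the nucleus and cytosol, and the enzyme encoded by OGA removes them. The sugar donor, UDP-GlcNAc, comes from glucose through the hexosamine pathway. Cell lines of unequal metastatic potential are commonly compared in their extracellular matrix, adhesion receptors, growth signals and proliferation genes, and the results below follow that order.

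The 4 Flag-OGT libraries hardly expressed the genes that define hepatocytes. The 6 hepatocyte markers (ALB, APOA1, TTR, SERPINA1, HNF4A and TF) summed to 0.96 to 3.17 FPKM per Flag-OGT library, against 19.6 to 105 FPKM in the controls, and TTR was listed at 0 in all 4. HNF4A, a transcription factor that maintains hepatocyte identity, was at 0.03 and 0.04 FPKM in MHCC-97H Flag-OGT, at 0.02 and 0.01 FPKM in MHCC-97L Flag-OGT and at 13.4 to 14.6 FPKM in the controls. The labelled cell type is therefore not borne out by its markers in the Flag-OGT libraries of either line. The epithelial markers EPCAM, CDH1, KRT8 and KRT18 summed to 18.8 to 29.3 FPKM there against 5358 to 6267 FPKM in the controls, and leukocyte, endothelial and cholangiocyte markers summed to at most 9.1, 1.57 and 4 FPKM. Fibroblast and stellate markers summed to 20.6 and 20.9 FPKM in MHCC-97H Flag-OGT and 15.4 and 14.6 FPKM in MHCC-97L Flag-OGT, with COL1A2 listed at 0 in all 4. In the controls, leukocyte markers summed to 82.3 to 85.6 FPKM, endothelial markers to 33.5 to 46.4 FPKM and cholangiocyte markers to 335 to 443 FPKM. Fibroblast and stellate markers summed to 4.54 to 12.2 FPKM there, less than with Flag-OGT. Across tested genes, the Flag-OGT libraries of the 2 lines correlated with each other at r = 0.953 to 0.954, replicates at r = 0.997 to 0.998, and each line's Flag-OGT libraries with its own controls at r = 0.783 to 0.817, where genes are not independent replicates. What sets the Flag-OGT libraries apart from the controls, and whether they come from the labelled lines, was not tested, and the line names below are those of the labels; the comparison below lies within them.

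The lines with Flag-OGT differed at 9657 genes, which is 73.8% of those tested (limma, Benjamini-Hochberg adjusted p under 0.05). Of these, 4670 were higher in MHCC-97H, 35.7% of the tested genes, and 4987 were lower, 38.1%. This split depends on the scale: with FPKM rescaled to a common sum it was 6094 to 3677, because the median difference of all genes moved from -0.02 to 0.14. At least 2-fold differences on the log2(FPKM + 1) scale were found at 1071 genes (8.18%), 582 higher (4.45%) and 489 lower (3.74%), and at least 4-fold differences at 34 and 16 genes. Since most genes passed the test, each count of list members below is to be read against these shares. The labels do not say that the 2 libraries of a group came from separate cultures, so p-values measure the spread between libraries, which may be technical. Libraries of the 2 groups did not overlap at 86.7% of tested genes, and no gene given with 4 values below overlapped unless this is stated. In bulk RNA, fewer cells of a type and less RNA per cell cannot be told apart.

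The enzymes of the O-GlcNAc cycle were close between the lines. OGT itself stood at 59.04 and 58.4 FPKM in MHCC-97H Flag-OGT and 50.95 and 54.5 FPKM in MHCC-97L Flag-OGT, a difference of 0.15 ± 0.05 (SE; adjusted p = 0.024). Without Flag-OGT, it was at 32.5 and 34.2 FPKM in MHCC-97H against 45.7 and 43.9 FPKM in MHCC-97L. Leaving out either MHCC-97H library left the size at 0.14 and 0.16 but not the call (adjusted p = 0.18 and 0.14), where the lone library is assumed to vary like the other group. The control lines differed in OGT the other way (-0.42 ± 0.06, adjusted p = 0.00014), and the 2 line differences differed by 0.57 ± 0.08 (adjusted p = 0.0002). These values are summed per gene, so transcripts of the transgene and of the cells' own OGT locus cannot be told apart. OGA was lower in MHCC-97H, at 24.9 and 24.6 FPKM against 29.1 and 33.2 FPKM (-0.32 ± 0.07, adjusted p = 0.0024), a call lost with FPKM rescaled to a common sum (-0.13, adjusted p = 0.13). GFPT1 and GFPT2, the isoenzymes of the rate-limiting step of the hexosamine pathway, overlapped between the lines (GFPT1 at 4.24 and 3.49 against 4.22 and 3.78 FPKM, GFPT2 at 15.9 and 15.3 against 15.7 and 14.2 FPKM). Of the 18 members of the O-GlcNAc and UDP-GlcNAc list, 3 were higher in MHCC-97H and 9 lower, with a median of -0.20 beside -0.02 for all genes; with FPKM rescaled to a common sum 7 were higher and 7 lower, with a median of -0.01. Those lowest in MHCC-97H were NAGK, which recycles free GlcNAc, at 13.8 and 14.1 FPKM against 27.98 and 25.2 FPKM (-0.88 ± 0.06), AMDHD2, a deacetylase of GlcNAc phosphate, and EOGT, the O-GlcNAc transferase of the endoplasmic reticulum (-0.83 ± 0.07 and -0.79 ± 0.07). Hexokinases HK1 and HK2, which feed glucose into glycolysis and the hexosamine pathway alike, were higher in MHCC-97H (0.79 ± 0.05 and 0.83 ± 0.07).

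ZNF263, the zinc finger protein studied with OGT in this series, was at 15.3 and 14.3 FPKM in MHCC-97H Flag-OGT and 12.5 and 13.1 FPKM in MHCC-97L Flag-OGT (0.20 ± 0.06, adjusted p = 0.019). The difference was -0.03 once the trend along length and GC was taken out (adjusted p = 0.68). With each library left out in turn it stayed between 0.15 and 0.24, with the call lost in 3 of the 4 smaller fits (adjusted p = 0.058 to 0.22). HCFC1, a transcriptional coregulator processed by OGT, was higher in MHCC-97H, at 58.1 and 60.9 FPKM against 38.6 and 37.05 FPKM (0.64 ± 0.05, adjusted p = 6.7e-06). Among 24 tested chromatin partners of OGT and ZNF263, 13 were higher and 5 lower (median 0.17); with the trend removed 11 were higher and 8 lower (median 0.05). SIN3A, the scaffold of a histone deacetylase complex, was the highest of them at 19.1 and 18.9 FPKM against 10.3 and 9.92 FPKM (0.85 ± 0.06), and PHF20, a subunit of a histone acetyltransferase complex, was the lowest (-0.43 ± 0.08).

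The steepest of the genes higher in MHCC-97H were low in MHCC-97L and abundant in MHCC-97H. BHMG1, which encodes a predicted basic helix-loop-helix protein, was at 181 and 180.2 FPKM in MHCC-97H Flag-OGT and 0.35 and 0.36 FPKM in MHCC-97L Flag-OGT (7.07 ± 0.06, adjusted p = 4.9e-11), and at no more than 0.12 FPKM in any control library. SH3BGR followed at 76.5 and 75.97 FPKM against 1.99 and 1.93 FPKM (4.71 ± 0.06). RIPK4, a kinase that controls keratinocyte differentiation, was at 62.1 and 61.1 FPKM against 1.34 and 1.72 FPKM (4.63 ± 0.08). ADAMTS1, a secreted protease that cleaves proteoglycans, was at 98.6 and 99.9 FPKM against 3.47 and 3.46 FPKM (4.49 ± 0.05). All 4 had their high level in the MHCC-97H Flag-OGT libraries alone: the control libraries held at most 6.99 FPKM of any of them. GPC3, a cell-surface proteoglycan used as a marker of hepatocellular carcinoma, was at 28.9 and 29.7 FPKM against 4 and 4.43 FPKM (2.54 ± 0.07) and listed at 0 in all 4 controls. ALKAL1, a ligand of the receptor tyrosine kinases ALK and LTK, was at 7.24 and 8.53 FPKM against 0.73 and 0.67 FPKM (2.38 ± 0.09). Some genes carry a limit of counting. NOMO2 and NOMO3 (3.02 ± 0.08 and 3.43 ± 0.09) are near-identical copies, together with NOMO1 (1.13 ± 0.05), and reads could be split among them. MSMP and RGP1 (2.97 ± 0.08 and 2.55 ± 0.09) overlap each other on opposite strands, and the sources used here do not say whether counting used strand. Other genes named here overlap an annotated coding neighbour, so that reads may be shared: on the same strand SH3BGR (with a read-through transcript), UGT2A1, DDX46, AMDHD2, LOXL2, NME1, IGF2, HOXC9, TUBB3, RNF43, PGK1, PYCR1, DDIT3, FAU, HSPE1, HELLS, DNMT1, BMI1 and TM7SF2. On the opposite strand they include ZNF263, PIK3C2G, COL4A1 and COL4A2 with each other, LAMB1, TIMP3, CTNNB1, HSP90AA1 and MAT2A.

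Lower in MHCC-97H by the most was ARRDC5, an arrestin-domain gene, at 0.16 and 0.19 FPKM in MHCC-97H Flag-OGT and 34.9 and 35.01 FPKM in MHCC-97L Flag-OGT (-4.94 ± 0.07, adjusted p = 1.5e-09), with at most 0.28 FPKM in any control. PIK3C2G, a class II phosphoinositide kinase known from liver, was at 0.6 and 0.51 FPKM against 13.7 and 14.99 FPKM (-3.30 ± 0.08). LYL1, a basic helix-loop-helix factor of blood cells, was at 0.24 and 0.12 FPKM against 7.65 and 6.45 FPKM (-2.77 ± 0.10). The linker histone gene HIST1H1C was at 10.8 and 13.5 FPKM against 66.5 and 66.05 FPKM (-2.36 ± 0.09), and DDX46, an RNA helicase of the spliceosome, at 10.97 and 11.5 FPKM against 47.03 and 52.8 FPKM (-2.05 ± 0.07). EIF4EBP3, DOK3, TIAF1, TEX49 and IL9R differed by -3.05 to -2.08; EIF4EBP3 and TIAF1 share sequence with overlapping genes on the same strand, and EIF4EBP3 differed widely between its MHCC-97H libraries (1.03 and 0 FPKM). These genes thus include a kinase, a signalling adaptor, a splicing factor and a histone rather than one family.

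Under a fixed rule, below 0.1 FPKM on average in one line and at least 5 FPKM in the other, 3 genes were measured in one line alone. SLC7A3, a carrier of cationic amino acids, was at 9.77 and 10.2 FPKM in MHCC-97H Flag-OGT and listed at 0 in the other 6 libraries. UGT2A1, a glucuronosyltransferase, was at 8.97 and 8.89 FPKM against 0.04 and 0.08 FPKM. HIST1H4J, one of the near-identical histone H4 genes, was listed at 0 in MHCC-97H Flag-OGT and at 21.2 and 21.5 FPKM in MHCC-97L Flag-OGT. Its copy HIST1H4K had the reverse pattern, at 2.91 and 2.91 FPKM against values listed at 0, so the assignment of H4 reads among copies is uncertain.

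**Figure D1:**
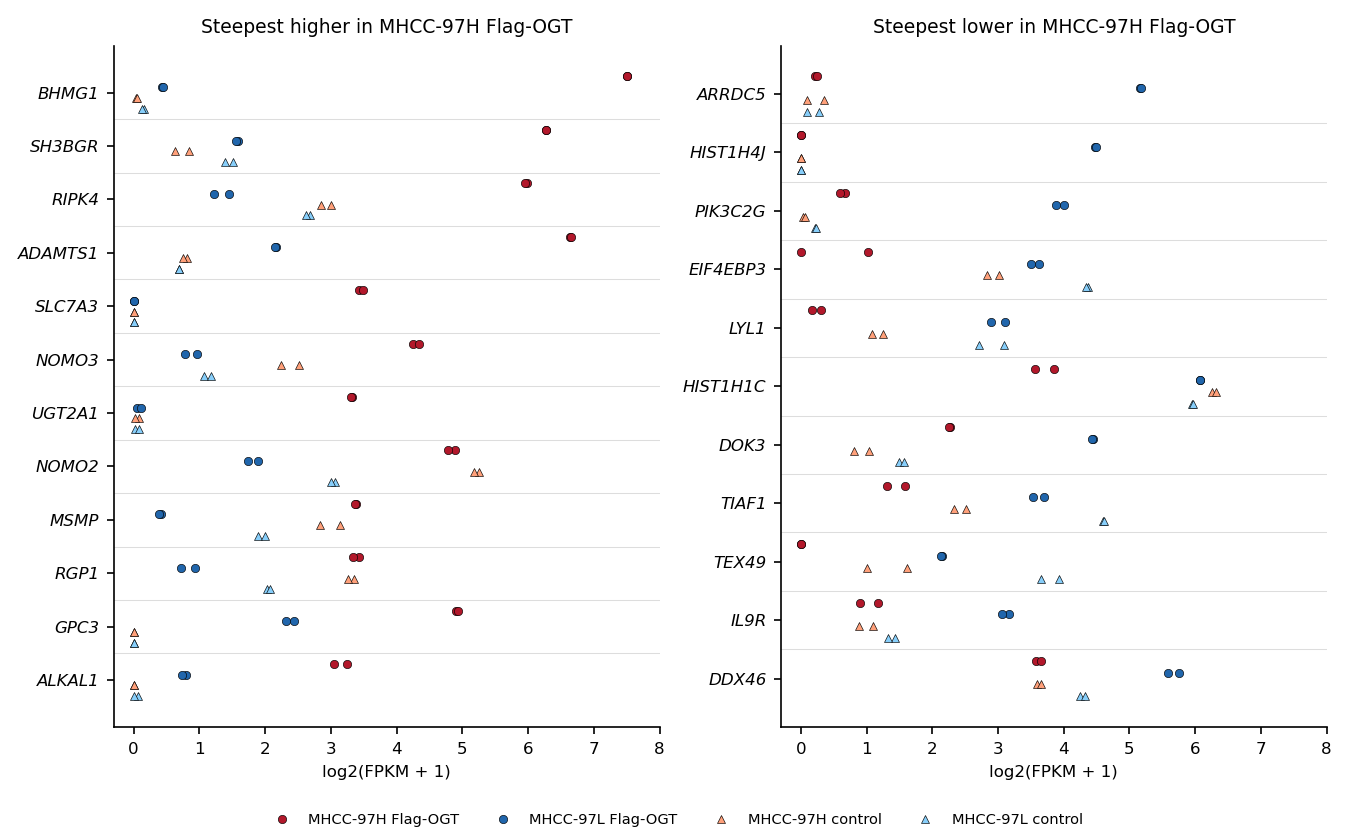
Level in each library, as log2(FPKM + 1), of the 12 genes highest and 11 named genes lowest in MHCC-97H Flag-OGT (dark red circles) relative to MHCC-97L Flag-OGT (dark blue circles), with MHCC-97H and MHCC-97L controls as pale red and pale blue triangles. Replicate libraries of the Flag-OGT groups lie close together for all but EIF4EBP3, and BHMG1, SLC7A3 and UGT2A1 are high in the MHCC-97H Flag-OGT libraries alone.

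Of the collagen and laminin genes, several that build the basement membrane were higher in MHCC-97H with Flag-OGT. This sheet beneath epithelia is built of type IV collagen and laminin trimers, which cells bind through integrins. The genes COL4A1 and COL4A2 encode partner chains of one collagen trimer and are transcribed in opposite directions from a short shared interval. That interval is shown because both genes differed in the same direction, together with the bases before the starts of the laminin genes LAMB1 and LAMB2. The sequences are from RefSeq, build GRCh38.p14. Both strands were searched for 4 motifs, and capitals mark the matches. One motif is CCAAT, the box bound by NF-Y. Another, called the GC box and bound by SP1, has the letters GGGCGG. A purine repeat unit, with the letters GGAGGA, was searched because ZNF263 is known to bind such repeats. The last, the TATA box, has the letters TATAAA.
COL4A1 and COL4A2 interval, chr13:110307158-110307283, plus strand: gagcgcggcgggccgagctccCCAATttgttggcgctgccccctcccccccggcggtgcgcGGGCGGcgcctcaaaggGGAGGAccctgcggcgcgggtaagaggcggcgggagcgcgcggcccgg
LAMB1 upstream, chr7:108003162-108003411, minus strand: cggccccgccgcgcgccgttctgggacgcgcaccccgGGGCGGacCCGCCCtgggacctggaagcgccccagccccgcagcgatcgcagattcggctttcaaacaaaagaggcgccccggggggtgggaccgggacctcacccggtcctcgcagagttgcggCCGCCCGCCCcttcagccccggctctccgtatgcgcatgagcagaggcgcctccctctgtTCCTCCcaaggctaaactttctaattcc
LAMB2 upstream, chr3:49133051-49133300, minus strand: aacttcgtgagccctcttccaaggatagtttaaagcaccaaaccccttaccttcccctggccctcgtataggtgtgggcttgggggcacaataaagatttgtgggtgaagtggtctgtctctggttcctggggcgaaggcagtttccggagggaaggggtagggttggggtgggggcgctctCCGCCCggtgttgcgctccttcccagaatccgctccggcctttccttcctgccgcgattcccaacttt
The 126 bases between the collagen genes hold 1 CCAAT, 1 GC box and 1 purine repeat, all as read in the direction of COL4A2. The 250 bases before LAMB1 hold 4 GC boxes (1 forward, 3 reverse) and 1 reverse purine repeat, and those before LAMB2 1 reverse GC box; none of the 3 holds a TATA box. Of the 10578 tested genes with a RefSeq promoter, 35.1% hold CCAAT, 68% the GC box, 35.1% the purine repeat and 5.34% the TATA box within the 250 bases before their starts, on either strand. The collagen interval has only 126 bases, so these shares are not on the same footing as its matches. The ratio of observed to expected CpG in the 250 bases was 0.924 for LAMB1, 1.01 for COL4A1, 1.04 for COL4A2 and 0.564 for LAMB2, with a median of 0.824 for all.

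COL4A1 was at 16.96 and 16.7 FPKM in MHCC-97H Flag-OGT and 4.84 and 4.62 FPKM in MHCC-97L Flag-OGT (1.64 ± 0.06, adjusted p = 2.3e-07). Its partner COL4A2 was at 39.8 and 40.2 FPKM against 15.9 and 14.5 FPKM (1.34 ± 0.06), and COL4A6, a chain of another type IV trimer, at 9.47 and 9.15 FPKM against 1.71 and 1.76 FPKM (1.91 ± 0.07). The laminin chains followed: LAMA1 was at 5.41 and 5.22 FPKM against 1.07 and 1.15 FPKM (1.58 ± 0.08), LAMB1 at 9.36 and 9.52 FPKM against 2.31 and 2.56 FPKM (1.60 ± 0.08) and LAMB2 at 20.7 and 20.3 FPKM against 9.44 and 9.62 FPKM (1.03 ± 0.06). Each of these 6 genes was at least 2-fold higher in MHCC-97H by the ratio of mean FPKM, from 2.15-fold for LAMB2 to 5.37-fold for COL4A6. With the trend along transcript length and GC content removed, their differences remained between 0.77 and 1.56. COL4A1, COL4A6 and LAMA1 were at no more than 0.04 FPKM in any control library. LAMB1 was at 43.95 and 48.5 FPKM in the MHCC-97H controls against 23.4 and 22.4 FPKM in those of MHCC-97L (0.98 ± 0.07). COL4A2 was at 1.65 and 1.65 FPKM against 0.68 and 0.74 FPKM there (0.63 ± 0.07), so both had the same direction as with Flag-OGT. LAMB2 had the opposite direction in the controls, 3 and 2.61 FPKM in MHCC-97H against 6.96 and 6.98 FPKM in MHCC-97L. Its 2 line differences themselves differed by the limma test (2.10 ± 0.10, adjusted p = 2.4e-07).

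Of 18 tested collagens, 13 were higher and 4 lower in MHCC-97H, with a median of 0.71. COL14A1, which binds collagen fibrils, was at 4.57 and 4.47 FPKM against 0.97 and 0.79 FPKM. Among those lower in MHCC-97H were COL11A2 and COL1A1, chains of fibrillar collagens, and COL7A1, which anchors the basement membrane (-0.69 ± 0.09, -0.51 ± 0.09 and -0.38 ± 0.08). Of 21 tested integrins and laminins, 15 were higher and none was lower (median 0.57). Genes of these lists are long, with a median transcript length of 6489 and 6133 bases beside 3351 for all tested genes, and removing the trend lowered their medians to 0.53 and 0.31. Among 25 matrix proteases and their inhibitors, 16 were higher and 5 lower (median 0.36, and 0.21 with the trend removed). TIMP3, a matrix-bound inhibitor of metalloproteases, was at 14.9 and 15.2 FPKM against 3.42 and 3.3 FPKM (1.88 ± 0.07), and MMP2, which degrades type IV collagen, at 6.74 and 6.07 FPKM against 1.5 and 1.17 FPKM (1.67 ± 0.10). MMP14, the membrane protease that activates MMP2, was lower (0.45 and 0.51 against 1.32 and 1 FPKM, -0.54 ± 0.10), as were ADAM8 and MMP19 (-1.27 ± 0.09 and -0.42 ± 0.08). Protease, substrate and inhibitor genes therefore did not share one direction.

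Mesenchymal genes were mostly higher in MHCC-97H: of 19 tested members of the list of the epithelial-mesenchymal transition, the programme by which epithelial cells become motile, 14 were higher and 2 lower (median 0.37). FN1, which encodes the matrix protein fibronectin, was at 8.92 and 9.17 FPKM in MHCC-97H Flag-OGT against 1.92 and 1.76 FPKM in MHCC-97L Flag-OGT (1.82 ± 0.08, adjusted p = 2.8e-07). Control libraries of MHCC-97H held far more, 735 and 771 FPKM, as did those of MHCC-97L at 704 and 680.02 FPKM. SNAI2, a repressor of epithelial genes, was at 30.9 and 29.3 FPKM against 9 and 9.58 FPKM (1.60 ± 0.06), while its relative SNAI1 was lower (1.25 and 1.02 against 1.86 and 2.42 FPKM, -0.55 ± 0.11). VIM, the intermediate filament of mesenchymal cells, was at 539 and 546 FPKM against 289 and 301 FPKM (0.87 ± 0.04). Its control libraries held 6.56 and 6.74 FPKM in MHCC-97H and 7.37 and 5.95 FPKM in MHCC-97L (0.00 ± 0.08). Between the controls, 5 of the same 19 genes were higher in MHCC-97H and 4 lower (median 0.02). Of all tested genes, 25.5% were higher and 37.3% lower there. LOXL2, an enzyme that crosslinks collagen, was higher (1.55 ± 0.07). Epithelial genes did not go the other way: of 20 tested junction and keratin genes, 12 were higher and 2 lower (median 0.33). The adhesion gene CDH1 was higher, at 2.03 and 1.68 FPKM against 0.87 and 0.7 FPKM (0.68 ± 0.10). KRT8 (11.1 and 10.9 against 12.03 and 5.62 FPKM) and KRT18 (13.8 and 15.2 against 16.3 and 12.4 FPKM) overlapped between the lines, and EPCAM was too low to be tested. Between the controls, 11 of the 20 genes were higher in MHCC-97H and 5 lower (median 0.52).

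The list of invasion and metastasis genes was split, with 13 of 27 tested members higher and 10 lower (median 0.09), and 12 each way with the length and GC trend removed (median 0.03). CXCR4, the receptor of the chemokine CXCL12, was at 4.99 and 5.17 FPKM in MHCC-97H against 0.74 and 0.89 FPKM in MHCC-97L (1.75 ± 0.08). NME1 and BRMS1, both named as metastasis suppressors, were lower in MHCC-97H. NME1 was at 247 and 254 FPKM against 684 and 638 FPKM (-1.40 ± 0.05, adjusted p = 1.4e-07), and BRMS1 at 32.3 and 30.8 FPKM against 85.1 and 77.1 FPKM (-1.33 ± 0.06). The urokinase receptor gene PLAUR was also lower (-0.92 ± 0.07). In the control libraries NME1 differed between the lines by -0.07 ± 0.05 (adjusted p = 0.27) and BRMS1 by -0.16 ± 0.07 (adjusted p = 0.078), and the line difference with Flag-OGT was lower than that without it for both genes (-1.33 ± 0.07 and -1.17 ± 0.10, adjusted p = 4.7e-07 and 8.8e-06).

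**Figure D2:**
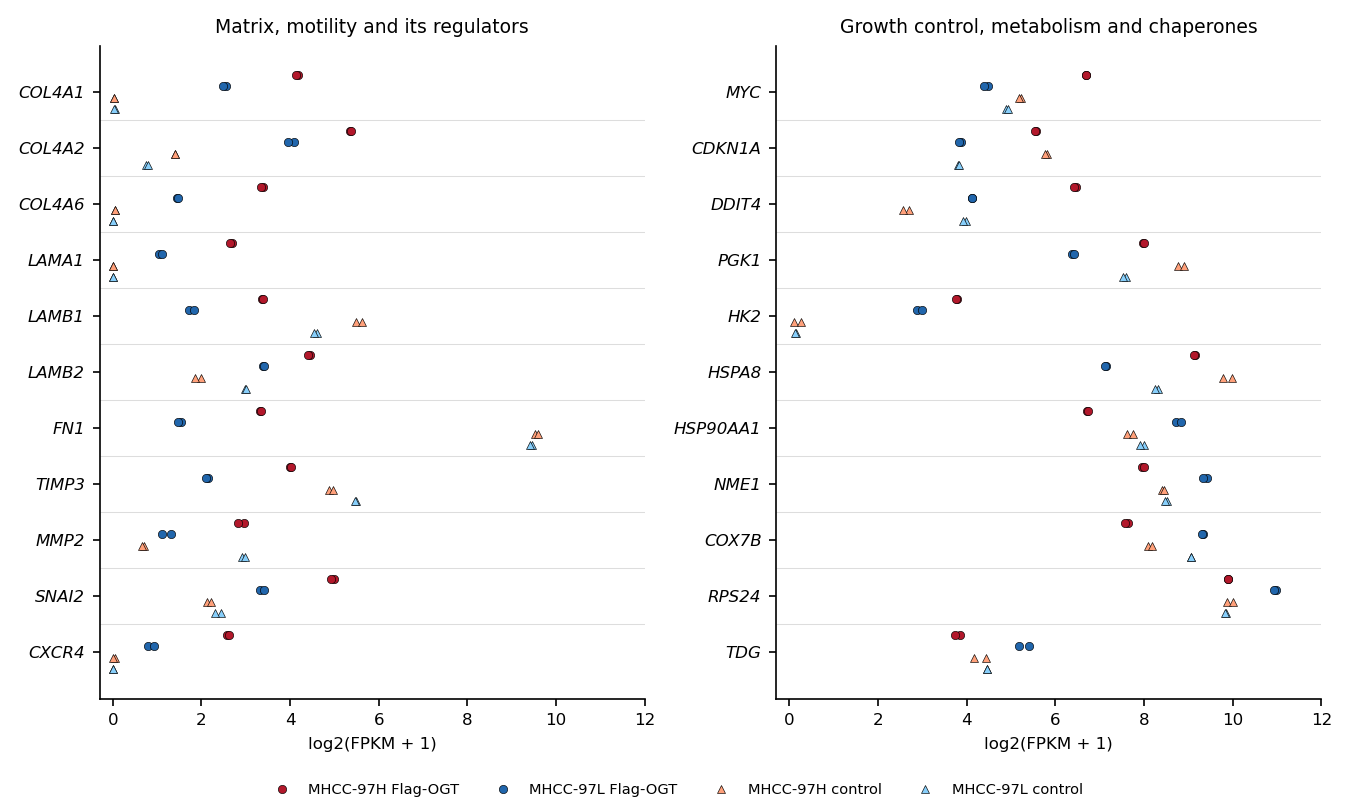
Level in each library, as log2(FPKM + 1), of genes of the matrix and motility (left) and of growth control, metabolism and chaperones (right), with MHCC-97H Flag-OGT as dark red and MHCC-97L Flag-OGT as dark blue circles and the controls as pale triangles. Every gene of the left panel is higher in MHCC-97H Flag-OGT than in MHCC-97L Flag-OGT, while HSP90AA1, NME1, COX7B, RPS24 and TDG in the right panel are lower.

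Receptors and ligands of growth signalling were mostly higher in the MHCC-97H Flag-OGT libraries. Among 27 tested growth factor receptors and ligands, 18 were higher and 3 lower (median 0.55, and 0.35 with the length and GC trend removed). MDK, the secreted growth factor midkine, was at 607 and 623 FPKM in MHCC-97H against 250.3 and 219 FPKM in MHCC-97L (1.39 ± 0.06), and VEGFC, which drives growth of lymphatic vessels, at 4.29 and 4.86 FPKM against 1.84 and 1.74 FPKM (1.00 ± 0.09). In the insulin and IGF list 14 of 23 were higher and 1 lower (median 0.33, and 0.18 with the trend removed). IGF2R, the receptor that clears IGF2, and the binding proteins IGFBP5 and IGFBP7 were among the highest (1.19 ± 0.07, 1.41 ± 0.07 and 1.40 ± 0.09); the ligand IGF2 was the lower gene (2.82 and 2.65 against 5.03 and 4.34 FPKM, -0.60 ± 0.09).

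Among the developmental pathways, the Notch list held members higher and lower in MHCC-97H. Notch is a cell-contact pathway in which the cleaved receptor acts with the DNA-binding protein RBPJ. NOTCH3 was at 22.02 and 22.1 FPKM in MHCC-97H against 6.01 and 5.59 FPKM in MHCC-97L (1.76 ± 0.06), NOTCH2 at 20.03 and 20.01 FPKM against 6.36 and 6.23 FPKM (1.53 ± 0.06), and the target gene HEYL at 4.9 and 4.63 FPKM against 1.72 and 1.77 FPKM (1.07 ± 0.08). RBPJ itself was lower, at 8.03 and 8.41 FPKM against 22.4 and 20.9 FPKM (-1.30 ± 0.06). In all, 11 of 22 Notch genes were higher and 4 lower (median 0.25). In the Wnt list 23 of 38 were higher and 4 lower (median 0.36); CTNNB1, which encodes beta-catenin, was at 89.8 and 88.8 FPKM against 40.2 and 43.9 FPKM (1.07 ± 0.05), and RNF43, a negative regulator of Wnt receptors, was lower (-0.59 ± 0.09). In the TGF-beta and BMP list 22 of 40 were higher and 7 lower (median 0.24). The receptor TGFBR2 and LTBP1, which stores the ligand in the matrix, were higher (1.24 ± 0.11 and 1.61 ± 0.08), and ID1, a BMP target, was lower at 12.7 and 13.2 FPKM against 34.4 and 30.4 FPKM (-1.26 ± 0.07). Of the Hippo pathway and its YAP targets, 14 of 20 were higher and 2 lower (median 0.34), and of ephrins, semaphorins and plexins 26 of 40 were higher and 5 lower (median 0.29). With the length and GC trend removed, the ephrin list fell to 17 higher and 5 lower (median 0.12) and the Wnt list to 18 higher and 8 lower (median 0.17).

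Developmental transcription factors were more often higher than lower in MHCC-97H, 28 against 6 of 46 tested (median 0.36). SALL2, a zinc finger factor, was at 29.3 and 30.4 FPKM against 8.04 and 7.53 FPKM (1.81 ± 0.06), and its relative SALL1 at 10.7 and 10.8 FPKM against 3.63 and 3.02 FPKM (1.44 ± 0.08). The HOX genes, which set position along the body axis, went both ways, 16 higher and 12 lower of 35 (median 0.15). HOXA13, HOXB13 and HOXD13 were higher in MHCC-97H (1.18 ± 0.09, 1.07 ± 0.09 and 1.00 ± 0.05), and HOXD9, HOXA2 and HOXC9 were lower (-1.30 ± 0.06, -1.05 ± 0.07 and -0.70 ± 0.05). The 3 higher genes are each the posterior-most of their cluster, and the 3 lower ones are not. These 6 were named as the extremes of the list, and position was not compared over its other members. HOXD13 was at 44.7 and 46.7 FPKM against 22.3 and 22.3 FPKM and HOXD9, of the same cluster, at 22.5 and 24.5 FPKM against 60.5 and 57.6 FPKM. Among 28 tested neuronal genes, 15 were higher and 7 lower (median 0.24, and 0.13 with the length and GC trend removed): the neurofilament genes NEFL and NEFM and the tubulin gene TUBB2B were higher (1.77 ± 0.07, 1.18 ± 0.09 and 1.63 ± 0.06), and TUBB3, CHGA and SYP were lower (-1.21 ± 0.10, -0.94 ± 0.10 and -0.89 ± 0.08).

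Growth control genes with opposite known roles were both higher in MHCC-97H. MYC, a transcription factor that drives cell growth, was at 102 and 103 FPKM in MHCC-97H Flag-OGT and 21.5 and 20.04 FPKM in MHCC-97L Flag-OGT (2.25 ± 0.05, adjusted p = 3.5e-08). CDKN1A, the p53 target that inhibits cyclin-dependent kinases, was at 46.1 and 45.9 FPKM against 13.7 and 13.1 FPKM (1.71 ± 0.05), and BTG2, another antiproliferative target of p53, at 25.4 and 26.6 FPKM against 6.94 and 7.09 FPKM (1.75 ± 0.06). Of 26 tested p53 genes, 19 were higher and 3 lower (median 0.35). For CDKN1A the controls showed a difference in the same direction, 54.95 and 53.5 FPKM in MHCC-97H against 13.04 and 13.2 FPKM in MHCC-97L, and for BTG2 one in the opposite direction, 1.38 and 1.56 FPKM against 3.4 and 2.87 FPKM. The list of the MYC network went both ways: 10 of 22 were higher and 8 lower (median 0.05). Its lower members included the nucleolar MYC target NOP16, at 45.3 and 41.7 FPKM against 93.01 and 86.6 FPKM (-1.03 ± 0.06). Among AP-1, immediate early and MAPK feedback genes 18 of 32 were higher and 3 lower (median 0.45); KLF10, an early gene of TGF-beta signalling, was at 10.6 and 10.8 FPKM against 1.57 and 1.72 FPKM (2.15 ± 0.07) and JUN at 115 and 111 FPKM against 56.2 and 55.8 FPKM (1.00 ± 0.04).

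Proliferation lists held members in both directions. Of 43 DNA replication genes, 25 were higher and 11 lower (median 0.26), such as MCM2, a subunit of the replicative helicase, at 161 and 159 FPKM against 84.6 and 80 FPKM (0.95 ± 0.05), and ORC1, which marks replication origins (1.15 ± 0.06). ORC4 and ORC3, other subunits of the origin recognition complex, were lower (-1.15 ± 0.06 and -0.91 ± 0.07). Of 37 cell cycle genes, 18 were higher and 7 lower (median 0.12). The mitotic genes TOP2A and CENPF lay at the lower end, TOP2A at 26.1 and 25.5 FPKM against 51.05 and 54.7 FPKM (-1.01 ± 0.05) and CENPF at 6.4 and 6.07 FPKM against 13.1 and 13.5 FPKM (-0.98 ± 0.07).

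Glycolytic and hypoxia-inducible genes were higher in MHCC-97H, 25 against 4 of 36 tested (median 0.56). PGK1, an enzyme of glycolysis, was at 251 and 254 FPKM against 82.4 and 85 FPKM (1.58 ± 0.04, adjusted p = 5.1e-08). NDRG1, a hypoxia-inducible gene, was at 34.6 and 35.3 FPKM against 11.2 and 10.99 FPKM (1.57 ± 0.05), and PFKFB3, which makes an activator of glycolysis, at 21.5 and 21.5 FPKM against 7.32 and 8.29 FPKM (1.36 ± 0.07). DDIT4, an inhibitor of mTORC1 induced by hypoxia and by amino acid stress, had the largest difference of the ATF4 list, 86.97 and 84.3 FPKM against 16.3 and 16.5 FPKM (2.32 ± 0.05); in the controls it was higher in MHCC-97L, 14.9 and 14.2 FPKM against 5.5 and 4.94 FPKM. Of the 34 tested genes of ATF4 and the unfolded protein response, 21 were higher and 6 lower (median 0.36). DDIT3, which encodes the stress factor CHOP, and the chaperones CALR and SDF2L1 of the endoplasmic reticulum were lower (-0.92 ± 0.07, -0.60 ± 0.04 and -1.11 ± 0.05).

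Among metabolic lists, the one of serine and one-carbon enzymes leaned higher. Of 30 serine and one-carbon genes, 17 were higher and 5 lower (median 0.33). PHGDH, the first enzyme of serine synthesis, was at 651 and 645 FPKM against 406 and 379.6 FPKM (0.72 ± 0.04), and PSAT1, the next enzyme, at 149 and 146 FPKM against 71.2 and 83.7 FPKM (0.93 ± 0.07). GLDC, which cleaves glycine, was at 7.7 and 7.66 FPKM against 1.23 and 1.1 FPKM (2.00 ± 0.08), and MAT2A, which makes the methyl donor S-adenosylmethionine, at 108 and 107 FPKM against 44.1 and 46.4 FPKM (1.23 ± 0.05). The urea cycle and proline list was split at 10 higher and 6 lower of 23 (median 0.09). ASS1, which makes argininosuccinate, was at 185 and 184 FPKM against 62.2 and 63.97 FPKM (1.54 ± 0.04), and CPS1, the first enzyme of the cycle, was higher as well (1.26 ± 0.10). PYCR1, an enzyme of proline synthesis, was higher (0.54 ± 0.05). SRM, which makes the polyamine spermidine, was lower at 221 and 221 FPKM against 469 and 419 FPKM (adjusted p = 9.6e-07). Amino acid transporters counted 14 higher and 8 lower of 28 (median 0.20, and 0.07 with the length and GC trend removed), with SLC1A4 and SLC7A1 higher (1.40 ± 0.08 and 1.20 ± 0.05). In cholesterol synthesis 12 of 30 were higher and 14 lower (median -0.07, and 0.12 with FPKM rescaled to a common sum): the enzymes ACAT2, TM7SF2 and EBP were lower (-1.53 ± 0.05, -1.53 ± 0.08 and -1.20 ± 0.04), while SREBF2, the transcription factor that activates the pathway, was higher at 112 and 113 FPKM against 58.9 and 56.8 FPKM (0.95 ± 0.05).

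With Flag-OGT, MHCC-97H was lower in genes for ribosomal proteins, respiratory chain subunits and histones. The direction of these 3 medians held with FPKM rescaled to a common sum (-0.25, -0.30 and -0.75). Of 79 ribosomal protein genes, 66 were lower and 10 higher (median -0.45). RPS24 was at 945 and 944 FPKM in MHCC-97H against 2030.2 and 1969 FPKM in MHCC-97L (-1.08 ± 0.04), and FAU, which encodes a small-subunit protein fused to a ubiquitin-like one, at 637 and 618 FPKM against 1497 and 1367 FPKM (-1.19 ± 0.05). RPLP0, of the ribosomal stalk, was higher, at 2859 and 2839.8 FPKM against 1958 and 1921 FPKM (0.55 ± 0.04), as were RPL10A and RPSA (0.55 ± 0.04 and 0.30 ± 0.04). Of 75 nuclear-encoded respiratory chain genes, 57 were lower and 16 higher (median -0.49). COX7B, of complex IV, was at 199.8 and 190.2 FPKM against 639 and 629 FPKM (-1.70 ± 0.04), and NDUFS5, of complex I, at 152 and 154 FPKM against 397 and 389.6 FPKM (-1.35 ± 0.04). ATP5F1A, a subunit of ATP synthase, was higher at 189 and 189 FPKM against 94.8 and 92.8 FPKM (1.00 ± 0.04), as was UQCRC2 of complex III (0.83 ± 0.05). Of 29 tested replication-dependent histone genes, 22 were lower and 2 higher (median -0.85). Between the controls, 37.3% of all tested genes were lower in MHCC-97H and 25.5% higher. Among the ribosomal genes, 51 were lower there and 11 higher (median -0.22). For the respiratory chain the control counts were 54 lower and 11 higher (median -0.42), and for histones 5 lower and 9 higher (median 0.07).

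These 3 lists hold short transcripts, with a median length of 1171, 1257 and 549 bases beside 3351 for all tested genes, and the line difference moved with length over all genes. In 10 equal classes by transcript length, the median difference with Flag-OGT went from -0.45 in the shortest (median 1077 bases) to 0.15 in the longest (median 9298 bases). Between the controls it went from -0.30 to 0.01. Spearman's rho of difference and length across 12844 genes was 0.28 with Flag-OGT and 0.24 in the controls; genes share libraries, so this is a description. With the trend along length and GC content removed, the ribosomal median was -0.12 (42 lower, 25 higher), the respiratory chain median -0.14 (42 lower, 22 higher) and the histone median -0.41 (15 lower, 4 higher), beside -0.01 for all genes. Without the trend 74% of 12844 genes were called, 36.1% higher and 37.9% lower. Most of the lower median of the first 2 lists went with the trend; what sets the trend was not tested.

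**Figure D3:**
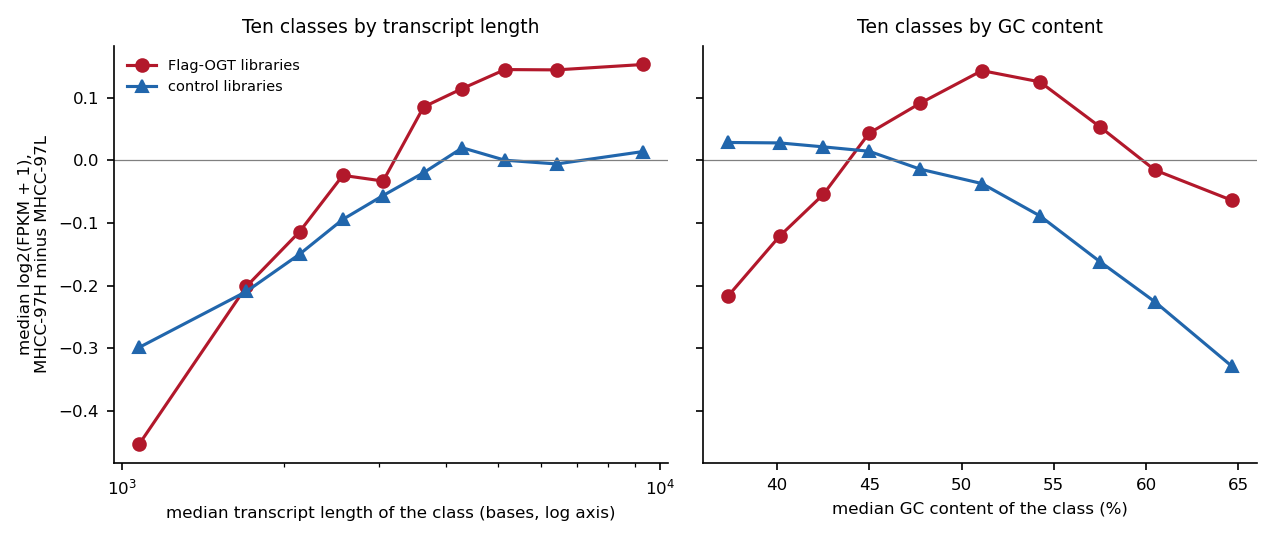
Median log2(FPKM + 1) difference, MHCC-97H minus MHCC-97L, in 10 classes of genes by transcript length (left, log axis) and by GC content (right), for the Flag-OGT libraries (red circles) and the controls (blue triangles). The difference climbs with length in both, from -0.45 to 0.15 with Flag-OGT, while along GC content it is highest in the middle classes with Flag-OGT and falls to -0.33 in the controls.

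Heat shock genes were more often lower in MHCC-97H, 21 against 3 of 35 tested (median -0.25, -0.20 with the length and GC trend removed), though the members that differed most went opposite ways; with FPKM rescaled to a common sum, 10 were lower and 7 higher (median -0.06). HSP90AA1, the inducible cytosolic HSP90, was at 104 and 106 FPKM in MHCC-97H against 418 and 455 FPKM in MHCC-97L (-2.04 ± 0.05, adjusted p = 4e-08), and HSPE1, the mitochondrial co-chaperone, at 85.05 and 77.9 FPKM against 196 and 215 FPKM (-1.32 ± 0.06). HSPA8, the constitutive cytosolic HSP70, was at 567 and 561 FPKM against 141 and 139 FPKM (2.00 ± 0.04, adjusted p = 1.3e-08). In the controls the list went the other way, 20 higher and 6 lower (median 0.22), beside 25.5% higher and 37.3% lower of all tested genes. For 22 of the 35 heat shock genes, the line difference with Flag-OGT was lower than that without it by the test of the difference. That test called 29.2% of all genes in that direction.

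Chromatin genes showed a few differences of size. TDG, which excises oxidised methylcytosine, was at 13.3 and 12.3 FPKM against 35.2 and 41.6 FPKM (-1.51 ± 0.08), the remodeller HELLS at 11.97 and 11.8 FPKM against 22.1 and 23.8 FPKM (-0.89 ± 0.06) and DNMT1, the maintenance methyltransferase, at 77.8 and 78.2 FPKM against 58.2 and 56.1 FPKM (0.44 ± 0.05). In that DNA methylation list 4 of 16 were higher and 6 lower (median -0.03, and 0.14 with FPKM rescaled to a common sum); with the length and GC trend removed 2 were higher and 10 lower (median -0.19). Of 49 Polycomb and Trithorax genes, 27 were higher and 9 lower (median 0.20), and with the length and GC trend removed 20 and 14 (median 0.09): BMI1 and PHC1, subunits of Polycomb complex 1, and the corepressor BCOR were higher (1.62 ± 0.10, 1.25 ± 0.06 and 1.01 ± 0.05), and YAF2 and MTF2 lower (-0.75 ± 0.12 and -0.61 ± 0.07). HMGA1, an architectural chromatin protein of embryonic and tumour cells, was at 477 and 492 FPKM against 178 and 157 FPKM (1.53 ± 0.06). It belongs to the oncofetal list, of which 10 of 17 were higher and 5 lower (median 0.47; 8 and 5, median 0.19, with the length and GC trend removed). Of 42 interferon-stimulated genes, 21 reached the mean of 0.5 FPKM, and 11 of these were lower in MHCC-97H and 3 higher (median -0.27). The counts were 8 and 5 (median -0.08) with FPKM rescaled to a common sum, and 11 and 6 (median -0.11) with the trend removed. Among the lower genes were MX1 at 0.4 and 0.34 FPKM against 1.88 and 2.18 FPKM and XAF1 at 1.66 and 1.63 FPKM against 4.4 and 3.85 FPKM. TMEM173, which encodes the DNA-sensing adaptor STING, was higher (1.40 ± 0.10).

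The remaining lists are given by their counts and medians. Smooth muscle and contractile genes counted 16 higher and 8 lower of 26 (median 0.23), lysosome and autophagy genes 20 and 10 of 40 (0.13), ABC transporters 13 and 5 of 22 (0.23), fatty acid genes 15 and 14 of 35 (0.10), NF-kappaB targets 8 and 6 of 20 (0.11), aldehyde dehydrogenases 7 and 3 of 16 (0.06), tetraspanins 8 and 6 of 21 (0.05), protocadherins 5 and 2 of 9 (0.29) and creatine genes 3 and 2 of 6 (0.14). Medians below 0 were those of hepatocyte enzymes with 5 higher and 7 lower of 18 (-0.01), MHC class I presentation with 5 and 6 of 14 (-0.06), NRF2 targets with 9 and 12 of 31 (-0.11), aldo-keto reductases, S100 proteins and annexins with 7 and 9 of 22 (-0.14), metallothionein and zinc genes with 1 and 3 of 8 (-0.19), cancer-testis antigens with 2 and 6 of 8 (-0.47) and secreted hepatocyte proteins with 0 and 4 of 5 (-0.53). With FPKM rescaled to a common sum the medians of hepatocyte enzymes, MHC class I, NRF2 and aldo-keto reductase lists turned to 0.12, 0.12, 0.09 and 0.03. With the length and GC trend removed, ABC transporters counted 9 higher and 5 lower (median 0.00) and aldehyde dehydrogenases 6 each way (-0.02). The same removal moved the medians of smooth muscle genes to 0.14, fatty acid genes to 0.04, tetraspanins to 0.13, creatine genes to 0.26, NRF2 targets to 0.03, aldo-keto reductases to 0.16, metallothioneins to -0.05, MHC class I to -0.01, secreted hepatocyte proteins to -0.22 and hepatocyte enzymes to 0.01. Few members of the hepatocyte and cancer-testis lists reached 0.5 FPKM, 5 of 36 secreted hepatocyte proteins and 8 of 43 cancer-testis antigens, so these counts describe the members that could be tested.

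**Figure D4:**
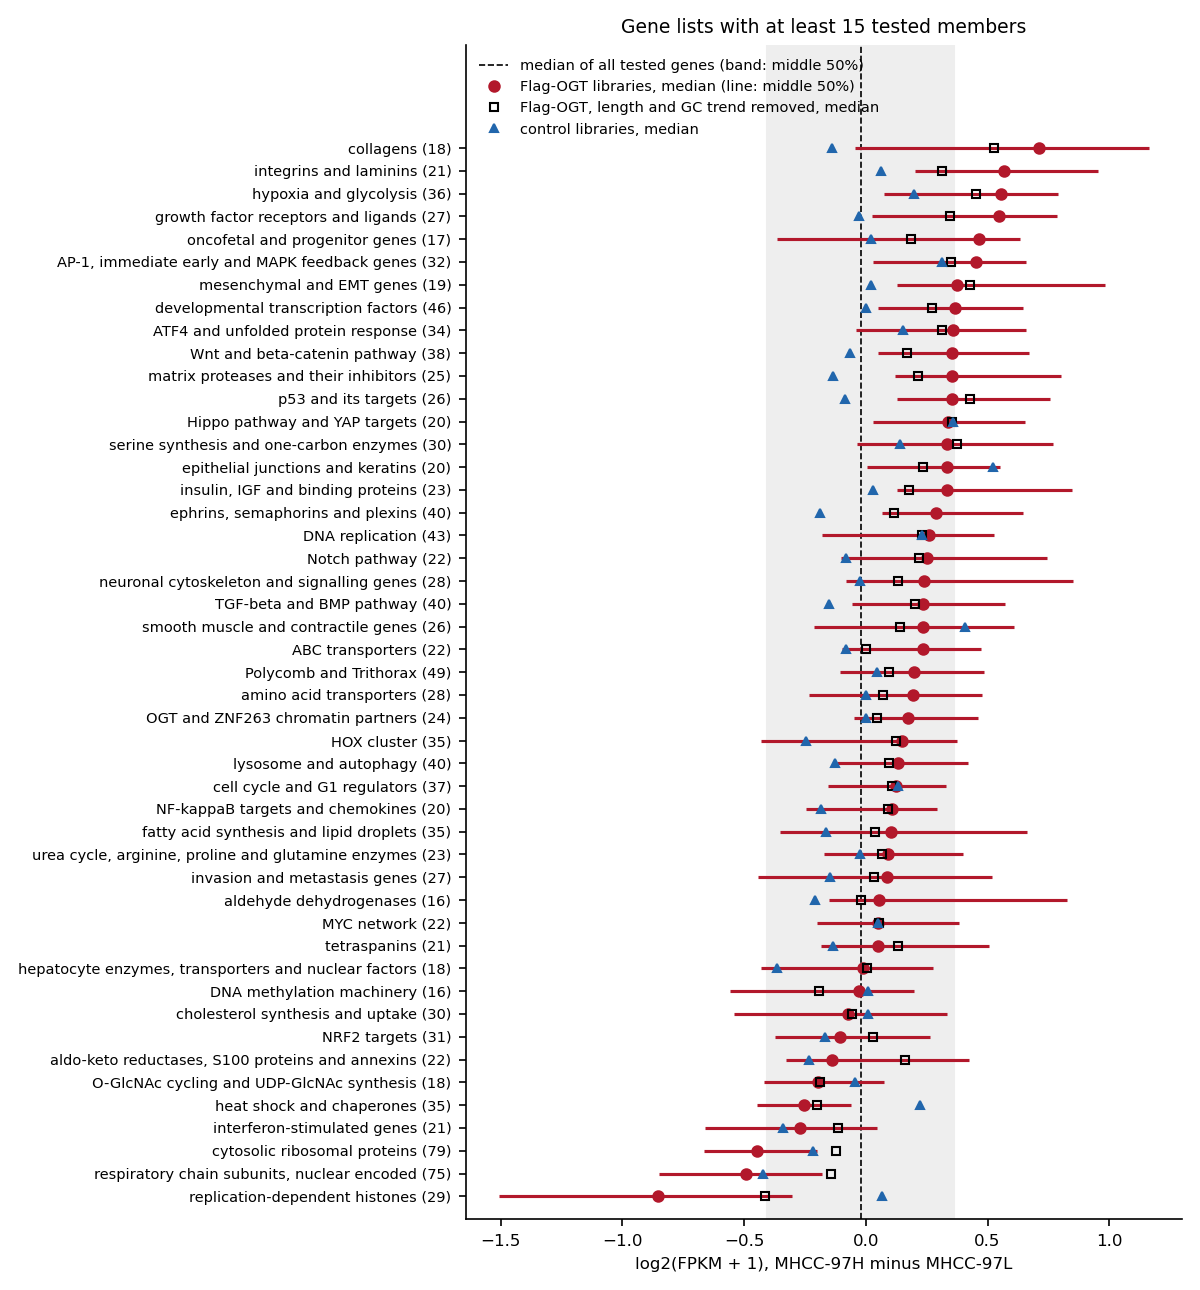
Median log2(FPKM + 1) difference, MHCC-97H minus MHCC-97L, of 47 gene lists with at least 15 tested members (number in brackets), with the middle 50% of members as a line, for the Flag-OGT libraries (red), the same after removal of the length and GC trend (open squares) and the controls (blue triangles); the dashed line and band give all tested genes. Collagens lie highest at 0.71 and histones lowest at -0.85, and the ribosomal and respiratory chain medians move toward 0 when the trend is removed.

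Neighbouring genes differed together in places. These groups, the zinc finger symbols and the chromosomes were picked after their values were seen and are named by genes they hold; no test was made. The lowest run of 25 neighbouring tested genes went from ZNF565 to ZNF793, with 22 genes lower in MHCC-97H, none higher and a median of -0.73, against -0.20 in the controls; 21 of the 25 carry a ZNF symbol, as zinc finger genes with KRAB repressor domains commonly do. Over the whole chromosome that holds this run, 201 tested ZNF genes had a median of -0.46 (140 lower, 17 higher), which was -0.39 with the length and GC trend removed. On other chromosomes 218 ZNF genes had a median of -0.05, and the 804 other tested genes of the same chromosome one of -0.18. The highest run went from FARP1 to COL4A2, so the collagen pair lies at its end, with 16 of 25 genes higher, 6 lower and a median of 0.62, against -0.04 in the controls. Differences between the control lines lay elsewhere: the lowest control run, SUMF1 to CRELD1, had a median of -1.34 there and -0.06 with Flag-OGT, and the highest, TANGO6 to SF3B3, 0.74 and 0.21. Of 23 chromosomes, the one that holds VIM and GATA3 had the highest control median, 0.34, and 0.01 with Flag-OGT.

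The difference between the lines with Flag-OGT was not the difference between the lines without it. In the controls 8216 of the same genes were called, 62.8%, with 3338 higher in MHCC-97H (25.5%) and 4878 lower (37.3%). At least 2-fold differences made up 5.89% there, 1.7% higher and 4.19% lower. The 2 comparisons share no library. Of 6285 genes called in both, 4441 had the same direction, and of 138 genes called and at least 2-fold in both, 90 did. Across the 13087 genes the 2 differences correlated with r = 0.26 (Spearman's rho 0.32), a description across genes. The test of the difference of the 2 line differences called 8163 genes (62.4%), 4341 with a higher (33.2%) and 3822 with a lower value with Flag-OGT (29.2%), and 1439 of them by at least 2-fold (11%).

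Of the 48 genes that changed direction at 2-fold, 41 were higher in MHCC-97H with Flag-OGT and lower in MHCC-97H without it, and 7 the reverse. MMP2, LAMB2, IGFBP5, ASS1, DDIT4, HTRA3 and TMEM173 were among the 41. Without Flag-OGT, ASS1 was at 1.38 and 1.26 FPKM in MHCC-97H against 18.3 and 19.8 FPKM in MHCC-97L, and with it at 185 and 184 FPKM against 62.2 and 63.97 FPKM. HTRA3, a secreted serine protease, was without Flag-OGT at 0.43 and 0.26 FPKM against 12.7 and 12.6 FPKM, and with it at 3.93 and 4.51 FPKM against 0.64 and 0.53 FPKM. TUBB3 and SERF1A were among the 7, where TUBB3 went from 173 and 146 FPKM against 53.1 and 56.2 FPKM without Flag-OGT to 3.77 and 4.58 FPKM against 11.7 and 10.2 FPKM with it. HSPA8, PGK1, HMGA1 and CDKN1A were higher in MHCC-97H in both states, with control differences of 1.60, 1.27, 1.27 and 1.97. The size still differed between the states, by 0.40 ± 0.09, 0.31 ± 0.08, 0.26 ± 0.09 and -0.26 ± 0.07 (adjusted p = 0.0037, 0.0053, 0.038 and 0.013; limma).

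**Figure D5:**
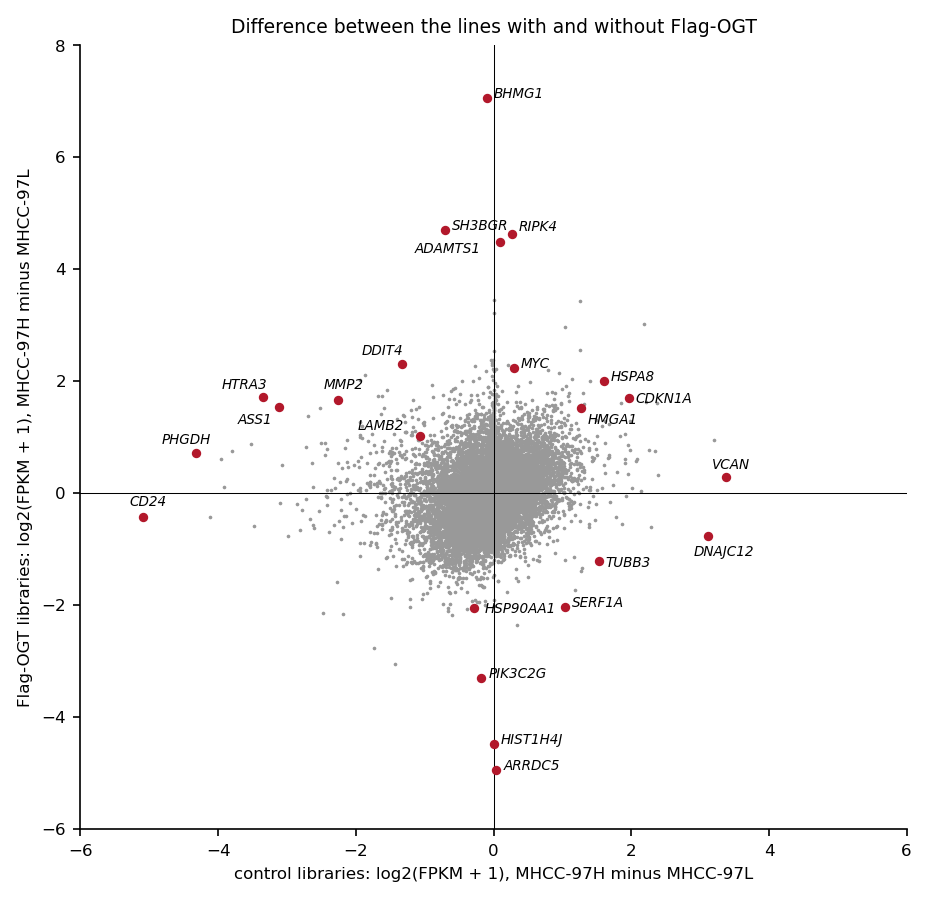
Difference between the lines, MHCC-97H minus MHCC-97L on the scale of log2(FPKM + 1), in the control libraries (horizontal) and in the Flag-OGT libraries (vertical); each point is 1 of 13087 tested genes and named genes are in red. BHMG1, RIPK4, ADAMTS1 and ARRDC5 lie between -0.10 and 0.27 on the horizontal axis, SH3BGR at -0.71, PHGDH, CD24, ASS1 and HTRA3 far to its left, and DNAJC12 and VCAN far to its right.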

How the data were processed

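The values were gene-level FPKM, deposited by the authors as 1 table with a column per library and 2 decimals. Trizol was used to isolate total RNA, per the labels' protocols. The submitters' processing notes name Bowtie2, HISAT2 2.1.0, RSEM 1.2.4, DESeq2 1.18.1 and hg19; no source used here says which tool produced the FPKM values. The read depth is unknown, and rows whose symbols had turned into dates (26 of 18928) were left out.

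Log2(FPKM + 1) values of genes with a mean of at least 0.5 FPKM were fitted with limma 3.58.1 (R 4.3.3), with a mean-variance trend. The 4 Flag-OGT libraries alone entered the line comparison, with 2 residual degrees of freedom, and all 8 the difference of line differences and the control comparison. The Benjamini-Hochberg adjustment of p-values covered every tested gene. Members of 53 gene lists and 6 marker lists, and the genes compared, were chosen with earlier results of these data known. Named genes were the 12 most extreme per direction, the 3 most extreme called members of a list in each direction, where it had them, O-GlcNAc and marker genes, and the 6 per direction with the largest difference of differences. NOMO1, COL4A2, VIM and GATA3 and the examples of direction changes were chosen after their values were seen, and a number of genes named by the rule are left out. Transcript length and GC content (GENCODE release 29) were matched for 98.1% of tested genes. Replicate numbers did not pair the Flag-OGT libraries of the 2 lines (correlation of deviations -0.02). For pairs of groups that include a control, this correlation ran from -0.21 between the 2 controls to 0.31 between MHCC-97L Flag-OGT and the MHCC-97H controls. In simulated data of the line comparison with 13087 genes, 50 were changed at each size. Recovery was 58% for differences of 0.585, 86% for those of 1 and 100% for those of 2 or 3. Of the 175 calls, 3 were false. Far fewer genes were changed there than the 73.8% called in the real comparison, and the adjustment of p-values depends on that share. The simulation therefore gives no error rate or recovery for the real calls.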

Additional observations from a re-analysis of the deposited data

Results flagged for a closer look

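A few genes had line differences with Flag-OGT that departed most from those of the controls, each by the limma test of the difference of the 2 line differences (Flag-OGT minus control, on the log2(FPKM + 1) scale, over 8 libraries). That test called 8163 genes, so passing it is common, and the genes here are the 6 most extreme in each direction.

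Above the control difference lay BHMG1 (7.17 ± 0.09), SH3BGR (5.42 ± 0.12), HTRA3 (5.06 ± 0.13), PHGDH (5.05 ± 0.08), CD24 (4.66 ± 0.12) and ASS1 (4.65 ± 0.08). BHMG1 was near 0 in the controls, whereas PHGDH and CD24, a glycoprotein of the cell surface, owed their values to the controls. Without Flag-OGT, PHGDH was at 0.98 and 1.06 FPKM in MHCC-97H against 38.6 and 40.4 FPKM in MHCC-97L, and at 380 to 651 FPKM with Flag-OGT. CD24 was at 1.67 and 1.38 FPKM and 85.3 and 84.02 FPKM in these controls, and at 1.36 and 1.62 FPKM in MHCC-97H and 2.48 and 2.19 FPKM in MHCC-97L with Flag-OGT.

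Below it lay ARRDC5 (-4.98 ± 0.14), HIST1H4J (-4.48 ± 0.09), DNAJC12 (-3.87 ± 0.15), PIK3C2G (-3.12 ± 0.10), VCAN (-3.09 ± 0.10) and SERF1A (-3.06 ± 0.48). DNAJC12, a co-chaperone, was without Flag-OGT at 16.4 and 21.7 FPKM in MHCC-97H against 1.32 and 1.28 FPKM in MHCC-97L, and at 10.5 and 10.7 FPKM and 19.5 and 17.97 FPKM with Flag-OGT. VCAN, a matrix proteoglycan, was at 10.96 and 11.5 FPKM and 0.2 and 0.16 FPKM in these controls, and at 6.54 and 6.15 FPKM and 5.07 and 4.98 FPKM with Flag-OGT. SERF1A varied between libraries of a group, from 9.58 to 16 FPKM in MHCC-97L Flag-OGT and from 2.11 to 6.58 FPKM in the MHCC-97H controls.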

How the results depend on the processing

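With at least a 2-fold difference also required, the count of genes fell to 1071 for the line comparison (582 higher, 489 lower) and to 1439 for the difference of line differences (1059 higher, 380 lower). Leaving out each library in turn gave 8249 to 9266 genes for the line comparison. The replicate block gave 9683 genes in the line comparison, 4683 higher and 5000 lower, and the numbers do not pair the Flag-OGT libraries. ZNF263 turned to -0.03 with the length and GC trend removed, an alternative chosen after seeing the data. Among lists with a median of at least 0.1 in size, those whose median turned were cancer-testis antigens (0.55 with a filter of 2 FPKM, 2 genes left), protocadherins, creatine and fatty acid genes and NF-kappaB targets without a filter (-0.00, -0.00, -0.01 and -0.03), NRF2 targets (0.09 with a common sum, 0.03 with the trend removed), and aldo-keto reductases, S100 proteins and annexins (0.03 with a common sum, 0.16 with the trend removed, and -0.29 to 0.05 when 1 library is left out, above 0 without MHCC-97L Flag-OGT replicate 1). Smaller medians that turned under at least 1 setting were those of hepatocyte enzymes, MHC class I, cholesterol, DNA methylation and aldehyde dehydrogenase genes. Besides the cases given with their genes, APOA1 lost its call under most settings, SOX9 (0.19), DNAJC12 (-0.13) and VCAN (0.13) with the trend removed, and VCAN also without MHCC-97H Flag-OGT replicate 1 (0.25, adjusted p = 0.083). The cause of these changes was not tested. With 2 libraries a group and unknown depth, low levels are the least certain.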
